A study of Mus musculus with 18 samples.

Results

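The circadian clock genes described here are Per1, Per2, Per3, Dbp, Nr1d1, Nr1d2, Tef, Cry1, Clock and Arntl, measured in the mouse cerebellum. Every array probe set annotated with exactly 1 of these 10 symbols was taken. This gave 25 probe sets, out of 34945 single-symbol probe sets for 18193 genes. Per3 had 6 probe sets, Clock 4, Per2 and Tef 3 each, Dbp, Nr1d2 and Arntl 2 each, and Per1, Nr1d1 and Cry1 1 each. Where a gene is given 1 value, it is that of its brightest probe set, the one with the highest mean over all arrays.

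The study addresses spinocerebellar ataxia type 6, a disease of the cerebellum caused by a CAG repeat expansion in the calcium channel gene CACNA1A. Total RNA from cerebella of C57BL/6 mice was hybridised to 18 Affymetrix arrays, 3 in each of 6 groups. The groups were homozygous MPI 118Q/118Q knock-in mice and their wild-type littermates, homozygous Sca6 CtmKO/CtmKO mice (here Ctm knockout) and their wild-type littermates, and homozygous MPI 11Q/11Q knock-in mice and their wild-type littermates. Per the design text the MPI 118Q/118Q and CtmKO/CtmKO animals were 6 weeks old. No age is given for 11Q animals in the sources used here. The time of day at which tissue was taken is not among the labels used here. All 6 groups share strain and tissue, and no treatment is named.

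The circadian clock of mammals is a transcriptional feedback loop. CLOCK and the product of Arntl, also called BMAL1, bind E-box sequences together and drive the Per and Cry genes, whose proteins inhibit that pair, and also Nr1d1, Nr1d2, Dbp and Tef. The NR1D receptors, also called REV-ERBs, repress Arntl through ROR response elements (ROREs), so Arntl peaks in the opposite part of the day from Nr1d1, Dbp and the Per genes. DBP and TEF are related PAR bZIP activators that bind D-boxes. Rhythmic clock gene expression is known in the cerebellum of rodents, and Per1 is in addition induced by glucocorticoids and by neuronal activity.

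The brightest probe sets of Tef and Arntl ran opposite to each other across arrays. Promoter sequences are shown for these genes, on which the results below turn, and for Per3, the 1 member with a D-box match. They come from RefSeq on build GRCm38.p6 and run from 250 bases before to 50 bases after an annotated start, 5′ to 3′ on the gene's own strand. Capitals mark motif matches on either strand: the E-box CACGTG, the D-box TTANGTAA and AGGTCA, the core of the RORE.
Tef, upstream start, chr15:81802423-81802722, plus strand: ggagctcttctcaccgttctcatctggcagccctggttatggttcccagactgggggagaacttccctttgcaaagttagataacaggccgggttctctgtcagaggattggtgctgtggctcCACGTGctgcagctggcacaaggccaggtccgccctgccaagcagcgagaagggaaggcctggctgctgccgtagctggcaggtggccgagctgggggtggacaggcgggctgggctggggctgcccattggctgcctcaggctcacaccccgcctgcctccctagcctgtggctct
Tef, downstream start, chr15:81811164-81811463, plus strand: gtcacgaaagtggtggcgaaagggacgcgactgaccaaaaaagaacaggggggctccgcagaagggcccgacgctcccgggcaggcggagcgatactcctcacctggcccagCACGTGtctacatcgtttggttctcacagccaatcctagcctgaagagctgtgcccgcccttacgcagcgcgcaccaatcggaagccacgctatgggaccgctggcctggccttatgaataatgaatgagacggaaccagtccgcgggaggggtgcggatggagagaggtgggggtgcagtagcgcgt
Per3, chr4:151044616-151044915, minus strand: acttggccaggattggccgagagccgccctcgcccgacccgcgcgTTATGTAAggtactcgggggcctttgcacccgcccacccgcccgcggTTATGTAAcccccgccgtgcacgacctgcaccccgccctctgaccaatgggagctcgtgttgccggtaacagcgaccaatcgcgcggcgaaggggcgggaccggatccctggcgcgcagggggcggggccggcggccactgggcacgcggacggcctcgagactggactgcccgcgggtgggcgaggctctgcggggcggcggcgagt
Arntl, chr7:113207261-113207560, plus strand: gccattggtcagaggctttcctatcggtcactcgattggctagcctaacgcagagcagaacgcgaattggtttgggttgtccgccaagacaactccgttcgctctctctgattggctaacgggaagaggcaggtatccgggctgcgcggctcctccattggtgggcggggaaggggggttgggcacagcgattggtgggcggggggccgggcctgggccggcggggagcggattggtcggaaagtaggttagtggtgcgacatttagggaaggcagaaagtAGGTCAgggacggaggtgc
The E-box matches of Tef began 127 and 138 bases before its 2 starts. The D-box matches of Per3 began 205 and 158 bases before its start, and the RORE core of Arntl began 31 bases after the start shown, 1 of its annotated starts. RefSeq windows were matched for 9 of the 10 genes, 14 windows in all. An E-box was found in 4 of them, belonging to Per1, Tef and Cry1, against 7.15% of 32851 mouse promoter windows of the same length. The D-box was found in 1 member window, against 2.32% of all windows, and the RORE core in 4, against 16.3%. The cyclic AMP response element TGACGTCA was found in 0 member windows, against 1.79% of all windows. Windows of the same gene are not independent, and sequence outside the windows was not searched. A match of letters is a description of the window, and binding was not measured.

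The arrays were alike in general quality. Array medians were 2.38 to 2.55 (log2), and any 2 arrays correlated at 0.977 to 0.995. Cacna1a (1450510_a_at) ranged from 5.51 to 6.43 over the 18 arrays, with 0.397 as its smallest adjusted p in the 3 lines. Where its probes lie relative to the altered parts of the gene is not given in the sources used here, so it does not check the genotype labels. Markers of the labelled tissue were bright: the granule cell gene Gabra6 lay between 10.15 and 10.54 and the Purkinje cell gene Pcp2 between 10.3 and 10.86. Ctm wild-type arrays 2 and 3 stood apart in the Y-linked genes Eif2s3y, at 5.07 and 4.57, and Uty, at 2.83 and 2.84, which were the lowest of all 18 arrays. In Kdm5d, at 4.53 and 4.26, and in Xist, at 1.95 and 1.98, they lay within the range of the other arrays. Member differences of the Ctm line and the test between wild types were recomputed without them, which leaves 1 Ctm wild-type array. In bulk cerebellum, fewer cells of a type and less RNA per cell cannot be told apart.

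**Figure D1:**
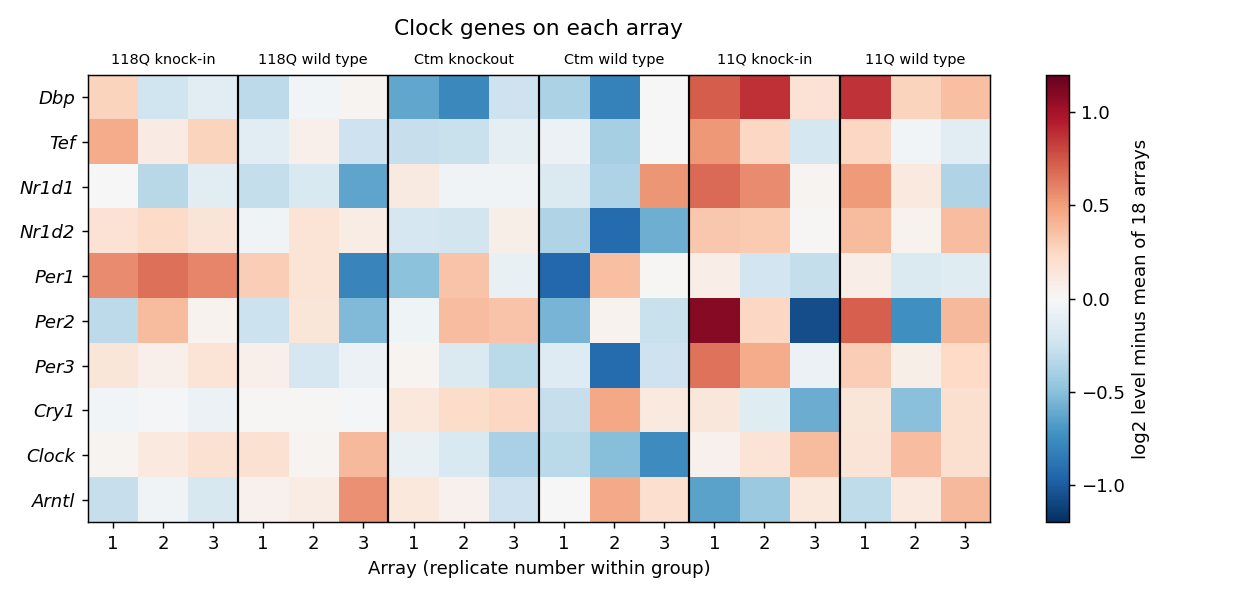
Level of each of the 10 clock genes on each of the 18 arrays, as the log2 level of the brightest probe set minus its mean over all arrays (red above, blue below), with arrays in columns by group. Tef and Arntl have opposite colours on 15 of 18 arrays, and the Ctm arrays are blue in Clock.

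Few clock probe sets passed the test between mutants and littermates. A probe set counts as called where limma's adjusted p, from a linear model over all 18 arrays with Benjamini-Hochberg adjustment over the 34945 probe sets, was under 0.05. In the 118Q line 1 of the 25 clock probe sets was called, 4%, against 0.558% of all probe sets. The Ctm line had 0 of 25 called, against 0.916% of all, and the 11Q line 0 of 25, against 0% of all. At an unadjusted p under 0.05 the members' counts were 3 in the 118Q line, 8 in the Ctm line and 1 in the 11Q line, which is 12%, 32% and 4% of 25. The same share over all probe sets was 14.1% in the 118Q line, 11% in the Ctm line and 5.24% in the 11Q line. The share of members was above the background in the Ctm line and near it in the knock-in lines. The 8 Ctm probe sets came from 4 genes, and probe sets of the same gene are not independent. Without Ctm wild-type arrays 2 and 3 the Ctm count was 4 of 25, 16%, against 6.53% of all probe sets. The median log2 difference over the 25 probe sets was 0.10 in the 118Q line, 0.19 in the Ctm line and 0.09 in the 11Q line, beside 0.03, -0.04 and -0.01 over all probe sets.

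**Figure D2:**
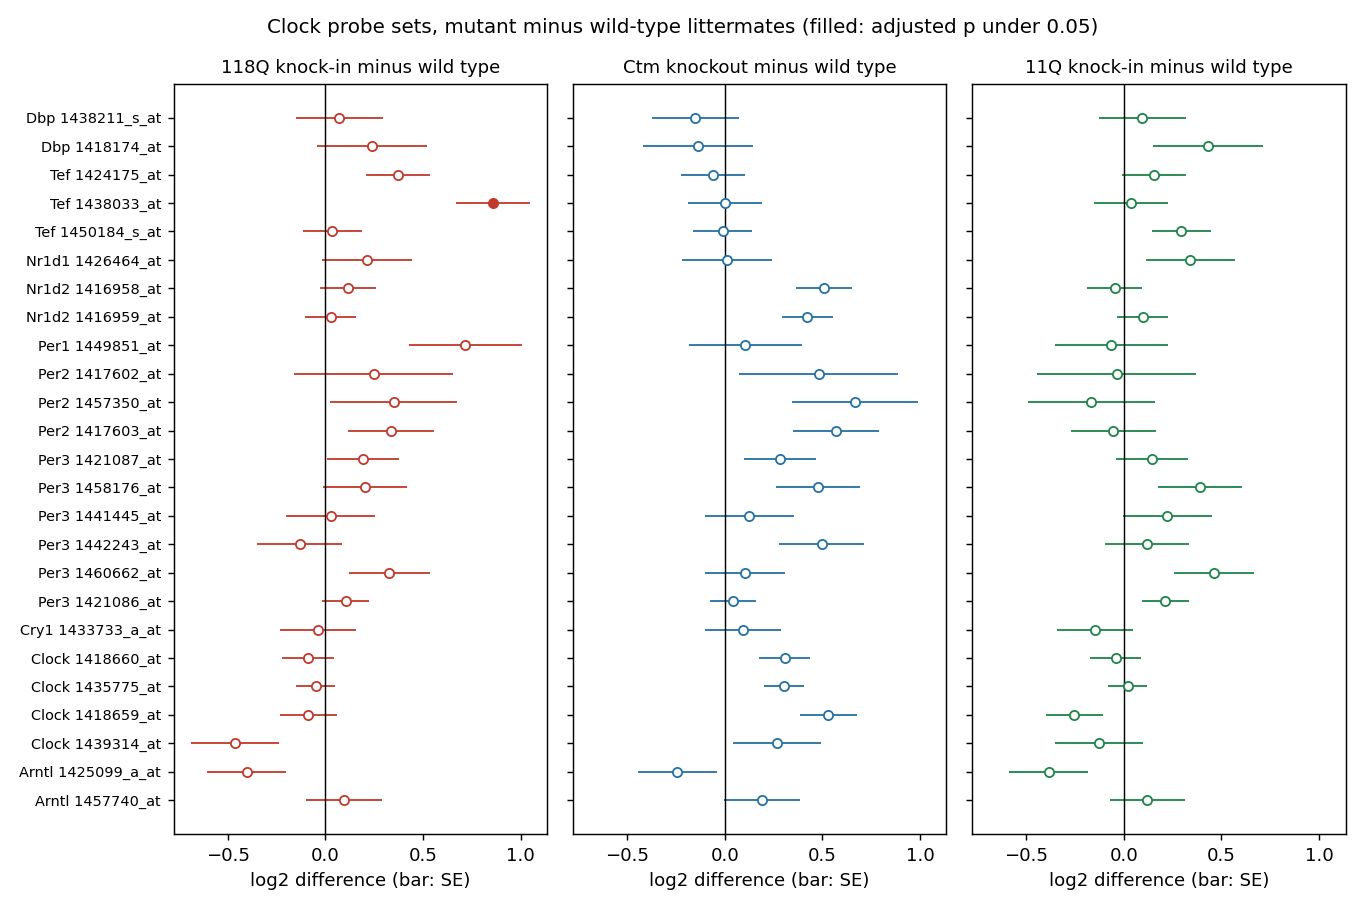
Difference between mutants and wild-type littermates in log2 level for the 25 clock probe sets in the 118Q, Ctm and 11Q lines, with standard errors as bars and filled points for an adjusted p under 0.05. A single point is filled, the dim Tef probe set 1438033_at in the 118Q line at 0.86.

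Among the output genes, the 118Q line held the only called probe set. Tef 1438033_at had log2 levels of 3.97, 3.19 and 3.61 in 118Q knock-in mice, against 2.85, 2.72 and 2.63 in wild-type littermates. The groups did not overlap. This probe set of the PAR bZIP gene rose by 0.86 ± 0.19 on the log2 scale (SE, limma adjusted p = 0.0499). It is dim, with a mean of 3.29 over the arrays beside a median of 3.02 over all probe sets. The brightest Tef probe set, 1424175_at, read 8.02, 7.68 and 7.84 in 118Q knock-in mice, against 7.45, 7.64 and 7.33 in wild-type littermates. It too was higher in every knock-in array than in any littermate, by 0.37 ± 0.16 (SE), and missed the threshold (limma adjusted p = 0.31). The third Tef probe set, 1450184_s_at, differed by 0.04 ± 0.15. The call on 1438033_at was lost when any 1 of the 6 arrays of the line was left out, with adjusted p between 0.0699 and 0.193. RNA quality moved with genotype here. As 3′ minus 5′ signal of control probe sets, averaged over the controls, it lay between 0.415 and 0.473 in 118Q knock-in mice, against 0.496 to 0.614 in wild-type littermates. With that measure as a covariate the difference was 0.70 (limma adjusted p = 0.163).

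Dbp, the other PAR bZIP member, is among the strongest rhythmic transcripts known in many tissues. Its brightest probe set, 1438211_s_at, read 7.08, 6.57 and 6.68 in 118Q knock-in mice, against 6.50, 6.77 and 6.84 in wild-type littermates. For Dbp, Ctm knockout mice read 6.18, 6.03 and 6.56, against 6.42, 6.00 and 6.80 in wild-type littermates, and in the 11Q line 7.53, 7.69 and 6.98 in knock-in mice, against 7.67, 7.07 and 7.17. Mutants and littermates overlapped in all 3 lines. The differences were 0.07 in the 118Q line, -0.15 in the Ctm line and 0.09 in the 11Q line (SE 0.22 each), with limma adjusted p between 0.878 and 0.957. The second Dbp probe set, 1418174_at, differed by 0.24, -0.14 and 0.43 in the 118Q, Ctm and 11Q lines (SE 0.28 each). Its limma adjusted p was 0.772, 0.923 and 0.909, and its groups overlapped too.

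Of the negative limb, Per1 was the member with the widest gap after Tef 1438033_at in the 118Q line. It read 6.75, 6.84 and 6.76 in 118Q knock-in mice, against 6.47, 6.34 and 5.38 in wild-type littermates. Every knock-in array was above every littermate, and wild-type array 3 was far below the other littermates. The difference was 0.72 ± 0.29 (SE, limma adjusted p = 0.26), and without wild-type array 3 it was 0.37 (limma adjusted p = 0.694). Per1 read 5.68, 6.51 and 6.09 in Ctm knockout mice, against 5.24, 6.54 and 6.19 in wild-type littermates, a difference of 0.11 ± 0.29. In the 11Q line it read 6.25, 5.94 and 5.89 in knock-in mice, against 6.25, 6.00 and 6.03 in wild-type littermates, a difference of -0.06 ± 0.29. The groups overlapped in those lines. The 118Q difference did not pass a test against the Ctm difference (0.61 ± 0.41, limma adjusted p = 0.503) or against the 11Q difference (0.78 ± 0.41, limma adjusted p = 0.597).

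Genes that answer to glucocorticoids or neuronal activity, the other known inputs to Per1, lay on the same side in the 118Q line. The 15 listed glucocorticoid response genes all had higher means in 118Q knock-in mice, with a median difference of 0.34, and 0 of 15 were called. The lowest adjusted p was that of the metallothionein gene Mt1 (0.65, limma adjusted p = 0.123), and Sult1a1 differed by 0.94 and Mt2 by 0.70. Of 11 immediate early genes, 10 had higher means, with a median of 0.44 and 0 called; the transcription factor gene Junb differed by 0.72 (limma adjusted p = 0.107), Ier2 by 0.44 and Npas4 by 1.12. Junb was also 0.70 higher in 11Q knock-in mice (limma adjusted p = 0.909), again without overlap. The mean level of the immediate early genes lay between 4.91 and 5.15 in 118Q knock-in mice, against 4.26 to 4.74 in wild-type littermates, so the groups did not overlap. That of the glucocorticoid genes lay between 6.32 and 6.74, against 6.01 to 6.39, and overlapped. These lists had 4 of 15 and 4 of 11 genes with higher means in Ctm knockout mice, and in the 11Q line 5 of 15 and 4 of 11 in knock-in mice. The counts include Lcn2, Fosb and Egr2, which read at most 1.02, 1.37 and 1.10. These genes lay below every array median, so the signs of their differences carry little. Of all probe sets, 57.4% had higher means in 118Q knock-in mice, 40.1% in Ctm knockout mice and 47.3% in 11Q knock-in mice. RNA quality also stood apart between the 118Q groups and was not adjusted for in these lists. The part of the listed genes in the Per1 difference was not tested.

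Per2 and Per3 encode further inhibitors of the CLOCK and BMAL1 pair, and Per2 varied widely between littermates. The brightest Per2 probe set, 1417602_at, read 5.59, 4.74 and 3.43 in 11Q knock-in mice, against 5.21, 3.77 and 4.89 in wild-type littermates. Its pooled SD within groups was 0.60, the widest of the 10 genes, and its difference in the 11Q line was -0.04 ± 0.41. Per2 1417602_at read 4.45, 4.87 and 4.84 in Ctm knockout mice, against 3.94, 4.54 and 4.23 in wild-type littermates, 0.48 ± 0.41 higher (limma adjusted p = 0.74), and 0.78 higher without wild-type arrays 2 and 3. All 3 Per2 and all 6 Per3 probe sets had higher means in Ctm knockout mice. Without Ctm wild-type arrays 2 and 3 that held for 3 of 3 Per2 probe sets and for 2 of 6 Per3 probe sets. Those whose groups did not overlap were Per2 1417603_at, which lay below the median of every array, Per3 1458176_at and Per3 1442243_at. Per3 1458176_at read 4.78, 4.57 and 4.50 in Ctm knockout mice, against 4.16, 4.09 and 4.17 in wild-type littermates, 0.48 ± 0.22 higher (SE, limma adjusted p = 0.417), and 0.46 higher without wild-type arrays 2 and 3. The largest member difference of the 11Q line was Per3 1460662_at, 0.46 ± 0.21 higher in knock-in mice (SE, limma adjusted p = 0.909), and that probe set too lay below every array median. Cry1, the member that encodes the partner of the PER proteins, had differences of -0.04, 0.10 and -0.15 in the 118Q, Ctm and 11Q lines (SE 0.20 each), and its groups overlapped in all 3.

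The Nr1d genes encode the receptors that repress Arntl. Nr1d2 1416958_at read 8.52, 8.50 and 8.79 in Ctm knockout mice, against 8.36, 7.79 and 8.13 in wild-type littermates. The knockout arrays all lay above the littermates, by 0.51 ± 0.14 (SE, limma adjusted p = 0.11). Without Ctm wild-type arrays 2 and 3 the difference was 0.24 (limma adjusted p = 0.902), and without wild-type array 1 it was 0.64 (limma adjusted p = 0.0226). The second Nr1d2 probe set, 1416959_at, was 0.42 higher (limma adjusted p = 0.164) but lay below every array median. Nr1d1 read 4.22, 4.07 and 4.08 in Ctm knockout mice, against 3.94, 3.74 and 4.65 in wild-type littermates, and the groups overlapped. Its differences were 0.01 in the Ctm line, 0.21 in the 118Q line and 0.34 in the 11Q line (SE 0.23 each), with limma adjusted p between 0.746 and 0.993.

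The activators were Clock and Arntl. Of the 25 clock probe sets, Clock 1418659_at had the smallest adjusted p in the Ctm line. It read 5.96, 6.09 and 5.86 in knockout mice, against 5.49, 5.64 and 5.20 in wild-type littermates, with no overlap and a difference of 0.53 ± 0.15 (SE, limma adjusted p = 0.103). Without Ctm wild-type arrays 2 and 3 it was 0.49 (limma adjusted p = 0.71). The brighter Clock probe sets 1418660_at and 1435775_at were higher by 0.31 and 0.30 in knockout mice (limma adjusted p = 0.377 and 0.2), and by 0.10 and 0.19 without wild-type arrays 2 and 3. In the 118Q line Clock 1439314_at, above the array median on 4 of 18 arrays, was 0.47 ± 0.23 lower in knock-in mice (limma adjusted p = 0.364), while the other 3 probe sets differed by -0.09, -0.05 and -0.09. Arntl 1425099_a_at read 5.45, 5.68 and 5.53 in 118Q knock-in mice, against 5.78, 5.82 and 6.27 in wild-type littermates. It was lower in every knock-in array, by 0.40 ± 0.20 (limma adjusted p = 0.384). It was lower by 0.24 in Ctm knockout mice and by 0.38 in 11Q knock-in mice as well (limma adjusted p = 0.735 and 0.909), where the groups overlapped. The dimmer Arntl probe set, 1457740_at, had differences of 0.09, 0.19 and 0.12 in the 118Q, Ctm and 11Q lines, of the opposite sign.

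Counted by groups that did not overlap, 7 of 25 clock probe sets stood apart in the 118Q line, 28%, against 16.3% of all probe sets. In the 118Q line Per1, 2 Per3 and 2 Tef probe sets were higher in knock-in mice, and 1 Clock and 1 Arntl probe set lower. In the Ctm line 7 of 25 stood apart, 28%, against 19.4% of all, and all were higher in knockout mice. They were 1 Per2, 2 Per3, both Nr1d2 and 2 Clock probe sets. The Ctm count was not repeated with 1 wild-type array left. In the 11Q line 0 of 25 stood apart, against 9.88% of all. No clock probe set was called for a difference between lines. For the 118Q against the Ctm difference 0 of 25 were called, against 1.63% of all, with 0.105 as the smallest adjusted p. For the 118Q against the 11Q difference, and for the Ctm against the 11Q difference, 0 of 25 were called, against 0% of all, with 0.395 and 0.229 as the smallest adjusted p.

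Phase-opposed members were next set against each other on each array. The deviations of Dbp, Nr1d1, Per1, Per2 and Per3 from their means over the 18 arrays were averaged, and that of Arntl was subtracted. Higher values mean more of the Per, Nr1d1 and Dbp side. The value was 0.41, 0.15 and 0.30 in 118Q knock-in mice, against -0.15, -0.11 and -0.95 in wild-type littermates. In the Ctm line it was -0.33, -0.11 and 0.18 in knockout mice, against -0.44, -0.79 and -0.20 in wild-type littermates. In the 11Q line it was 1.29, 0.82 and -0.37 in knock-in mice, against 0.80, -0.21 and -0.29 in wild-type littermates. The 118Q knock-in arrays all lay above their littermates, and the other lines overlapped. This rests on Arntl 1425099_a_at. The dimmer Arntl probe set, 1457740_at, read 3.10, 3.38 and 3.23 in 118Q knock-in mice, against 3.56, 2.84 and 3.04 in wild-type littermates. Those groups overlapped, and the value was not computed with that probe set. Taken gene by gene against Arntl 1425099_a_at, the 118Q groups stood apart for Per1 and Per3 and overlapped for Dbp, Nr1d1 and Per2. The 11Q line was the widest. In it knock-in arrays 1 and 2 and wild-type array 1 were high while knock-in array 3 and wild-type arrays 2 and 3 were low, so both genotypes held high and low arrays.

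**Figure D3:**
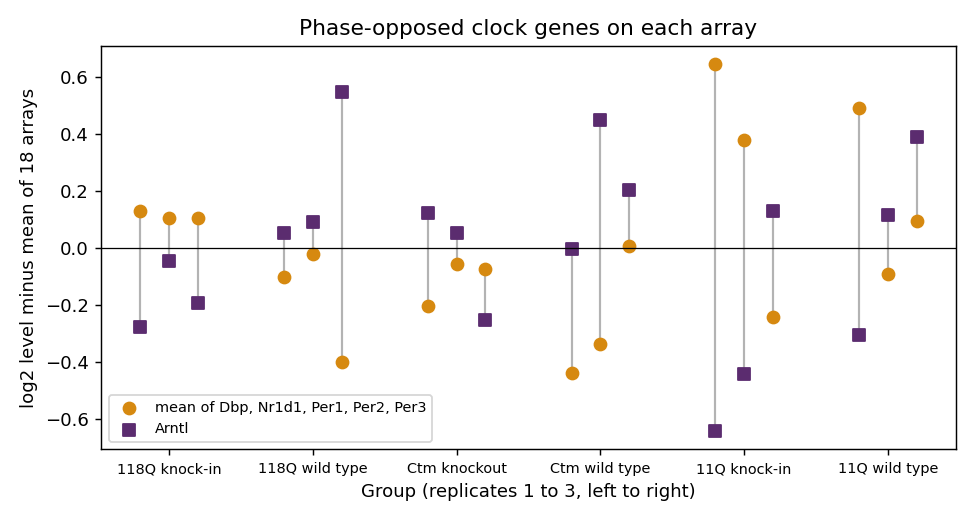
Mean deviation of Dbp, Nr1d1, Per1, Per2 and Per3 (circles) and deviation of Arntl 1425099_a_at (squares) on each array, by group. Deviations are log2 levels minus the mean of 18 arrays. The circle lies above the square on all 3 arrays of the 118Q knock-in group and below it on all 3 of its wild-type littermates, and 11Q knock-in array 1 has the widest gap, 1.29.

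Over the 18 arrays, 6 of the 9 other members had a Pearson correlation with Arntl that passed a two-sided permutation test with 100000 resamples, adjusted over the 9 relations, and all 6 were negative. Tef had the strongest, r = -0.82 (adjusted permutation p = 0.00054, n = 18) with Spearman's rho of -0.77 (adjusted permutation p = 0.00225). It held without the 2 arrays farthest from the Arntl median, 11Q knock-in array 1 and 118Q wild-type array 3, at r = -0.75 (adjusted permutation p = 0.009). It also held on deviations from group means, at r = -0.90 (exact permutation within groups over 46656 orders, adjusted p = 0.00174). Within lines, r was -0.90 in the 118Q line, -0.53 in the Ctm line and -0.94 in the 11Q line, with adjusted exact permutation p of 0.0458, 0.675 and 0.0687 over 6 arrays each. The within-line permutations, here and below, crossed genotypes, so a difference between mutants and littermates enters r within a line. These relations are of the brightest probe sets, 1424175_at for Tef and 1425099_a_at for Arntl. The other Tef probe sets, 1450184_s_at and the called 1438033_at, were not set against Arntl. Tef lay on the opposite side of its mean from Arntl on 15 of 18 arrays. That count was 12 for Per2, Per3 and Nr1d2, 10 for Per1, Dbp and Clock, and 9 for Nr1d1.

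Nr1d1 followed with r = -0.69 (adjusted permutation p = 0.00598) and rho of -0.53 (adjusted permutation p = 0.0596). Without the 2 farthest arrays it was -0.49 (adjusted permutation p = 0.101), so whether it passed rests on them. On deviations from group means it was -0.72 (adjusted exact permutation p = 0.058). Within lines Nr1d1 gave -0.93 in the 118Q line and -0.98 in the 11Q line, with adjusted exact permutation p of 0.0458 and 0.0375, and -0.11 in the Ctm line (adjusted exact permutation p = 0.836). Whether the lines differ in this was not tested.

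The other relations that passed were weaker. Per3 gave r = -0.63 (adjusted permutation p = 0.0143), and Dbp, Per2 and Nr1d2 gave -0.52, -0.51 and -0.50 (adjusted permutation p = 0.0488 each). None of these 4 passed by Spearman's rho, without the 2 farthest arrays or on deviations from group means, where adjusted permutation p lay between 0.0596 and 0.464. Per1 gave -0.27 (adjusted permutation p = 0.354), though within the 118Q line it reached -0.95 (adjusted exact permutation p = 0.0458). In that line Per1 and Arntl both stood apart by genotype, so their relation and the genotype difference cannot be told apart there. On deviations from group means over all arrays Per1 gave -0.19 (adjusted exact permutation p = 0.56). Cry1 at 0.06 and Clock at -0.07 showed no relation to Arntl that passed (adjusted permutation p = 0.824 each). Cry1 lay on the same side of its mean as Arntl on 12 of 18 arrays.

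**Figure D4:**
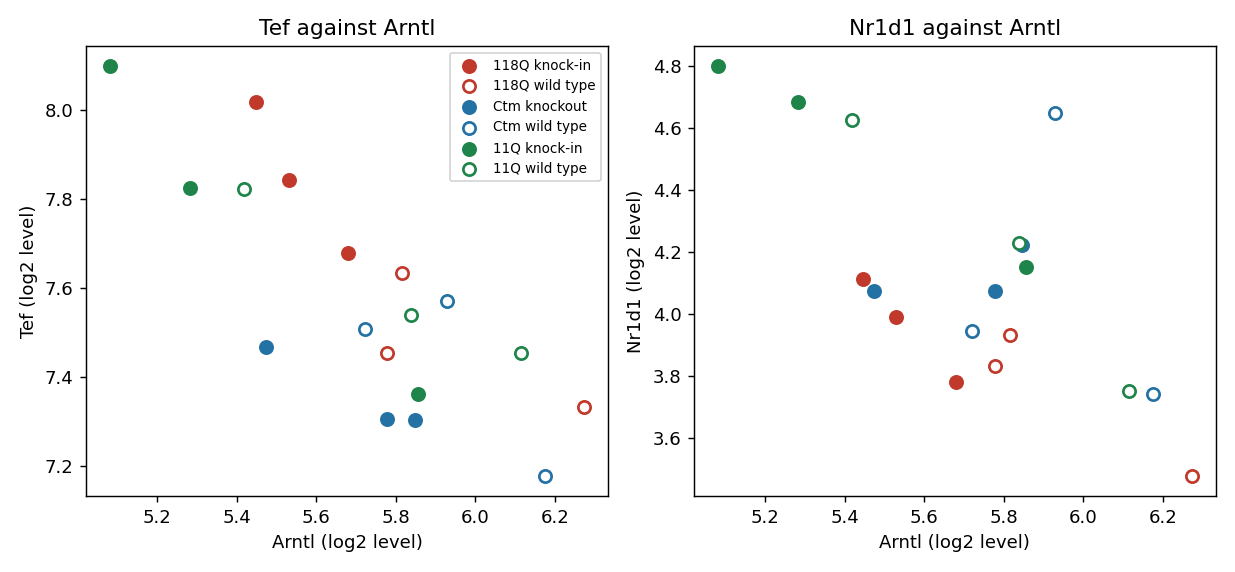
Log2 level of Tef 1424175_at (left) and Nr1d1 (right) against that of Arntl 1425099_a_at on the 18 arrays. Filled points are mutants, open points are wild types, and colours show lines. Tef falls as Arntl rises across all arrays (r = -0.82), while for Nr1d1 (r = -0.69) the Ctm arrays show little slope.

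The genes most like 2 of the members were taken by Pearson r over the 18 arrays among 10175 other genes brighter than the median probe set, with the members left out, as a description in which all genes share arrays, lines and normalization. Those most like Dbp were Exosc8 (r = 0.87), Poldip3 (0.85), Pdpr (0.83), Map3k12 (0.83) and Atp5a1 (0.83). Those most like Arntl were Lynx1 (0.84), Exoc4 (0.83), Ndrg1 (0.80), Prss23 (0.79) and Cnn3 (0.78). None of them is on the lists of clock genes. On deviations from group means r was 0.356 (Poldip3) to 0.675 (Exosc8) for those most like Dbp. For those most like Arntl it was 0.653 (Prss23) to 0.809 (Lynx1 and Ndrg1). On the opposed side, looked at after the values were known, Nfil3, which encodes a repressor that binds D-boxes, correlated with Dbp at r = -0.83, and -0.73 on deviations from group means. Kcnj12, on no clock list, was more negative with Dbp at r = -0.855, and gave -0.56 on deviations from group means. Vgll4, also on no clock list, gave -0.815 and -0.343. Ciart, which encodes an inhibitor of the CLOCK and BMAL1 pair, correlated with Arntl at r = -0.75, and -0.83 on deviations from group means, weaker than the member Tef on both. Slc16a11, Icosl, Rbm24 and Zfp687, on no clock list, were close to Ciart, with -0.743, -0.737, -0.732 and -0.728. On deviations from group means they gave -0.816, -0.73, -0.694 and -0.661.

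Wild-type mice of the 3 lines differed from each other in clock genes. By limma's F test over the 3 wild-type groups 8 of 25 clock probe sets were called, 32%, against 10.6% of all probe sets. They were both Nr1d2 probe sets, 3 of Clock, and 1 each of Tef, Dbp and Per3. Nr1d2 1416958_at averaged 8.10 ± 0.29 in Ctm wild types, 8.79 ± 0.11 in 118Q wild types and 8.98 ± 0.19 in 11Q wild types (SD, n = 3 each; limma adjusted p = 0.00134). It was lower in Ctm wild types than in 118Q wild types by 0.70 and than in 11Q wild types by 0.89 (SE 0.14). The ranges of the 118Q and 11Q wild types overlapped.

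Clock 1418660_at read 6.23, 6.04 and 5.80 in Ctm wild types, against 6.74, 6.58 and 6.94 in 118Q wild types and 6.71, 6.93 and 6.75 in 11Q wild types. It was lower in Ctm wild types by 0.73 and 0.77 (SE 0.13, limma adjusted p = 0.00135). On this probe set the Ctm knockout arrays, at 6.46, 6.38 and 6.16, were also below all 12 arrays of the knock-in lines, of which the lowest was 6.58. That did not hold for the other called Clock probe sets. Clock 1418659_at averaged 5.97 in Ctm knockout mice, against 6.03 in 118Q wild types and 5.96 in 11Q wild types. Clock 1435775_at averaged 6.46, against 6.54 and 6.50. Nr1d2 1416958_at was at 8.60 ± 0.16 in Ctm knockout mice, against 8.91 ± 0.04 in 118Q knock-in and 8.94 ± 0.17 in 11Q knock-in mice (SD, n = 3 each). Ctm knockout array 3, at 8.79, was within the range of the other lines.

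Tef 1438033_at went the other way, with 3.84 ± 0.30 in Ctm wild types, 2.73 ± 0.11 in 118Q wild types and 2.86 ± 0.32 in 11Q wild types (SD, n = 3 each; limma adjusted p = 0.0018). Ctm knockout mice had 3.84 ± 0.21. The levels of 118Q knock-in mice, 3.59 ± 0.39, lay nearer to the Ctm wild types than to their own littermates. The other Tef probe sets did not show this difference between wild types. The bright 1424175_at was lower in Ctm wild types than in 118Q and 11Q wild types by 0.055 and 0.186 (limma F test, adjusted p = 0.732). For 1450184_s_at it was lower by 0.257 and 0.18 (limma F test, adjusted p = 0.494). Dbp 1438211_s_at averaged 6.41 ± 0.40 in Ctm wild types, 6.70 ± 0.18 in 118Q wild types and 7.30 ± 0.33 in 11Q wild types (limma adjusted p = 0.0321). In Dbp it was the 11Q line that was highest, with 7.40 ± 0.37 in 11Q knock-in mice. The second Dbp probe set, 1418174_at, was not called between wild types (limma F test, adjusted p = 0.397). Per3 1442243_at was also highest in the 11Q line and lower by 0.81 in Ctm wild types and by 0.68 in 118Q wild types than in 11Q wild types (limma adjusted p = 0.0362).

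Without Ctm wild-type arrays 2 and 3 the F test called 0 of 25, against 0.987% of all probe sets. At an unadjusted p under 0.05 it then gave 8 of 25, 32%, against 14.4% of all. With 1 Ctm wild-type array left, adjusted p was 0.19 for Nr1d2 1416958_at, 0.225 for Clock 1418660_at and 0.187 for Tef 1438033_at. That remaining array read 8.36 for Nr1d2 and 6.23 for Clock, both lower than in each of the other lines' wild types. Each line had its own littermates, so line and any difference in age, sex or time of collection between lines cannot be told apart.

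**Figure D5:**
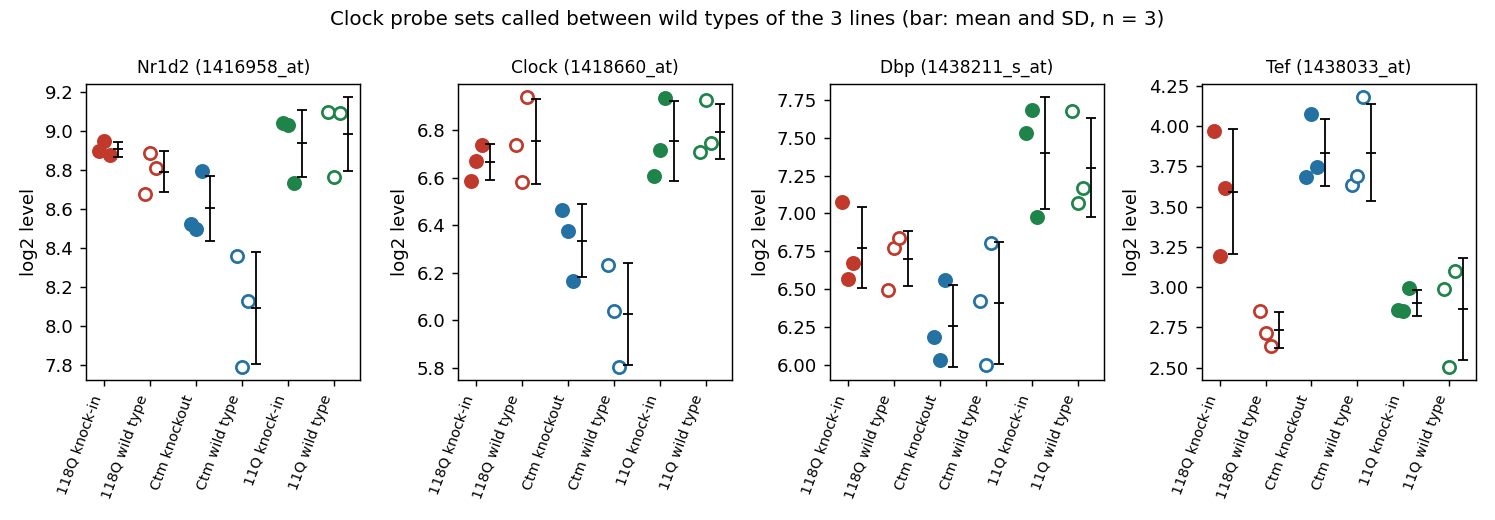
Log2 levels of Nr1d2, Clock, Dbp and Tef probe sets in the 6 groups, with each array as a point and the mean and SD of each group as a bar (n = 3). Clock and Nr1d2 are lowest in Ctm wild types, Dbp is highest in the 11Q line, and Tef 1438033_at is high in both Ctm groups and in 118Q knock-in mice.

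Beyond the 10 members, 18 of 20 other listed clock genes were measured, and 0 were called in any line. Their median differences were 0.15 in the 118Q line, -0.06 in the Ctm line and -0.02 in the 11Q line, with 12, 7 and 8 of 18 positive. The lowest p in the 118Q line was that of Rora, which encodes the activator that binds the same elements as the NR1D receptors, at -0.37 (limma adjusted p = 0.238). For Ctm the casein kinase gene Csnk1d came first, at -0.19 (limma adjusted p = 0.51), and in the 11Q line Bhlhe41, which encodes a repressor of E-box transcription, at 0.30 (limma adjusted p = 0.909). Rora is also expressed strongly in Purkinje cells, and of 3 measured Purkinje cell markers 2 had lower means in 118Q knock-in mice: Car8 fell by 0.65 (limma adjusted p = 0.043) and Calb1 differed by -0.75 (limma adjusted p = 0.0606). Purkinje cell markers averaged 9.84 to 10.35 in 118Q knock-in mice, against 10.42 to 10.56 in wild-type littermates, and their part in the clock gene differences was not tested. Between wild types Hlf, the third PAR bZIP gene, and Csnk1d were called (limma adjusted p = 0.0136 and 0.0294), 2 of 18 genes, which is close to the 10.6% of all probe sets. Of the glucocorticoid and immediate early lists, Arc was called between wild types (limma adjusted p = 0.0414). That is 0 of 15 and 1 of 11 genes, beside the same 10.6% of all probe sets.

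Choroid plexus RNA varied most of the marker lists. Its 6 markers averaged 2.69 to 6.18 in 11Q knock-in mice, against 6.39 to 6.73 in wild-type littermates, without overlap, and 0 of 6 were called. Within the 118Q line they averaged 3.59 to 6.34 in knock-in mice, against 3.06 to 7.01 in wild-type littermates, and in the Ctm line 2.85 to 6.62 in knockout mice, against 3.63 to 6.84. The defining marker Ttr ranged from 5.30 to 12.1 over the arrays and was at 0 in no array. Other lists whose groups did not overlap in the 118Q line were microglia, at 4.61 to 5.06 in knock-in mice, against 4.38 to 4.43 in wild-type littermates, and endothelium, at 3.83 to 4.20, against 4.24 to 4.65. Meninges, at 4.08 to 4.13 in 118Q knock-in mice, against 4.20 to 4.42, did not overlap either. In that line the microglial gene Trem2 rose by 0.89 (limma adjusted p = 0.00427), while Cx3cr1 differed by 0.35 and Csf1r by -0.025 (limma adjusted p = 0.35 and 0.975). The endothelial gene Flt1 fell by 0.90 (limma adjusted p = 0.0218), while Cldn5 differed by -0.44 and Pecam1 by -0.03 (limma adjusted p = 0.228 and 0.973). Between wild types the called markers were Slc1a3, Csf1r, Col1a1 and Slc6a13 (limma adjusted p = 0.0038, 0.0498, 0.0447 and 0.0309). They were 1 of 3 astrocyte, 1 of 3 microglia and 2 of 3 meninges markers, against 10.6% of all probe sets. In the granule cell, Purkinje cell, oligodendrocyte, endothelium and choroid plexus lists, 0 of 4, 3, 2, 3 and 6 were called. Between Ctm knockout mice and littermates the granule cell list, at 10.45 to 10.55 against 10.27 to 10.37, and the meninges list, at 3.81 to 4.07 against 4.11 to 4.36, stood apart. The part of these cells and tissues in the clock gene levels was not tested.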

How the data were processed

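Per the labels, biotin-labelled cRNA of cerebellar total RNA was hybridised to Affymetrix mouse arrays. The deposited series table holds log2 values of 45101 probe sets on 18 arrays, and the submitters' processing notes name RMA, which corrects background, normalizes between arrays and summarizes probes before deposit. RMA shrinks differences of dim probe sets, and the number of arrays limits the precision. Genes were named through GEO's platform annotation: 34945 probe sets had 1 symbol, 10092 several or none, and 64 controls were left out.

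On these log2 values, deposited by the authors, limma 3.58.1 (R 4.3.3) was fitted with 1 mean per group over 18 arrays, eBayes and Benjamini-Hochberg adjustment over 34945 probe sets, threshold 0.05, as the series' design text names limma. Nothing says the samples are more independent than separate mice, so p-values measure only the spread between these arrays. Correlations and their permutation tests used numpy 2.4.6, with ranks from scipy 1.17.1. Simulated data were used to test the fit. The members, lists and rule for named genes were chosen with earlier results of these data known. The rule named all members, of each gene list called genes or up to 3 per line by lowest p, and 5 genes most like Dbp and Arntl. Alternatives were probe set choice, a dim filter, eBayes settings, normalization, RNA quality, replicate block, the line alone, pooled wild types and leaving arrays out.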

Additional observations from a re-analysis of the deposited data

How the results depend on the processing

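Which clock probe sets were called depended on the setting in the 118Q line. The count was 0 instead of 1 with the brightest probe set or mean of a gene's probe sets, the RNA quality covariate, the replicate block, the 6 arrays of the line alone and wild types of all 3 lines as control, and 0 to 0 when 1 array was left out. In the Ctm line it was 1 instead of 0 with the replicate block (Clock 1418659_at, adjusted p = 0.0478) and with all wild types (Tef 1438033_at), and 0 to 1 with 1 array left out. Same-numbered arrays of a line had deviations correlated above 0.1 in 2 of 9 pairs (r between -0.122 and 0.22 over all 9), and 0, 2 and 2 of 6 arrays in the 118Q, Ctm and 11Q lines correlated best with their own number, so the numbers were not taken to pair the mice; with the replicate block Tef 1438033_at had an adjusted p of 0.0666 in the 118Q line. Between wild types the count was 3 with brightest probe sets, 2 with means, 0 without Ctm wild types 2 and 3, and 5 to 9 with 1 array left out. Counts over all probe sets for 118Q, 195 as reported, were 491 without the dimmer 50% of probe sets, 412 with trend and robust settings, 298 after quantile normalization, 1 with RNA quality, 77 with the replicate block, 0 for the line alone, 3246 against all wild types and 1 to 1078 with 1 array left out. For Ctm, 320 as reported, they were 169 with brightest probe sets, 176 with means, 492 without dim probe sets, 2 for the line alone, 704 against all wild types, 5 without wild types 2 and 3, and 4 to 796 with 1 array left out. For 11Q, 0 as reported, they were 3 with trend and robust settings, 1 with the replicate block, 4 for the line alone, 22 against all wild types and 0 to 2 with 1 array left out. Relations with Arntl that passed, 6 as reported, were 1 by Spearman's rho, 1 without the 2 farthest arrays, 1 on deviations from group means, and 3, 0 and 1 within the 118Q, Ctm and 11Q lines. The cause of these shifts was not tested, except that fewer samples enter the line-alone and leave-out fits. Differences that changed sign against all wild types were, in the 118Q line, Dbp -0.0314, Nr1d1 -0.0592 and Clock 0.14; in the Ctm line Per3 -0.051, Nr1d2 -0.02 and Clock -0.191; in the 11Q line Per2 0.207, Nr1d2 0.313, Clock 0.229 and Tef 1438033_at -0.245. Nr1d2 in the 11Q line turned to 0.0246 with means of probe sets, Tef 1438033_at in the Ctm line to -0.0105 after quantile normalization, and Per3 in the Ctm line to -0.000684 without wild types 2 and 3. Correlations with Arntl turned for Per1 in the Ctm line (0.387), for Cry1 on deviations (-0.197) and in the 11Q line (-0.327), and for Clock by rho (0.0847), on deviations (0.515) and in the 118Q and 11Q lines (0.764 and 0.694). Leaving out 1 array also turned signs of differences that had not passed the threshold. In the 11Q line the ranges were Per1 -0.176 to 0.0151, Per2 -0.537 to 0.544, Per3 -0.0112 to 0.35, Dbp -0.0492 to 0.304, Nr1d2 -0.157 to 0.0534, Tef 1424175_at -0.0118 to 0.356, Cry1 -0.371 to 0.0495, Clock -0.132 to 0.0331 and Tef 1438033_at -0.145 to 0.154. In the 118Q line they were Dbp -0.0801 to 0.172 and Clock -0.174 to 0.00401. In the Ctm line they were Per1 -0.271 to 0.381, Dbp -0.355 to 0.0475, Nr1d1 -0.172 to 0.279, Tef 1424175_at -0.181 to 0.0157, Cry1 -0.0926 to 0.276 and Tef 1438033_at -0.119 to 0.173. With 3 arrays a group, small log2 differences could not be told from the spread between mice, and dim probe sets carry little signal over background.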
